A study of Mus musculus with 6 samples.

Results

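The genes described here encode the core proteins of spliceosomal snRNPs and the 2 large families of RNA-binding proteins that accompany pre-mRNA. They were taken by name: every gene whose symbol starts with Snrp, Srsf or Hnrnp in the list of 11221 genes that the authors compared with edgeR. That gave 43 genes, 12 Snrp, 11 Srsf and 20 Hnrnp. All 43 passed the filter on low counts used here (more than 1 CPM in at least 3 libraries), as did 12336 genes of the 46983 counted. For the filter, CPM was counts divided by the unscaled library total, and for the values given below by the scaled library total. Another 5 genes with such a symbol, Snrpn and 4 processed pseudogenes, were not in that list, and none of them held more than 2 counts in a library.

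RNA sequencing was done on naïve CD4 T cells from lymph nodes of male mice on a C57B6/J background. The cells had been sorted by flow cytometry as positive for TCRb, CD4 and CD62L and negative for CD44 and DAPI. There were 3 control libraries, from Rnmt fl/fl mice without Cre, and 3 Rnmt cKO libraries, from Rnmt fl/fl mice with CD4cre. The Rnmt alleles of both groups therefore had loxP sites around exon 3, and Cre, driven by Cd4 regulatory sequence from the double positive stage of the thymus onwards, was present in the Rnmt cKO group only, so that the effects of Cre and of Rnmt loss cannot be told apart. The ages of the mice are not given in the sources used here. The comparison asks which transcripts change when naïve T cells lack RNMT, the enzyme that methylates the guanosine cap of RNA polymerase II transcripts.

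Sm proteins form a ring of 7 subunits around the spliceosomal small nuclear RNAs (snRNAs), and each ring with its RNA and particle-specific proteins makes a U1, U2, U4 or U5 snRNP. SR proteins bind exonic enhancers through RNA-recognition motifs and recruit spliceosome components with their arginine- and serine-rich tails. The hnRNPs coat nascent transcripts, and many of them repress or redirect splice-site choice. In T cells, members of both families set the alternative splicing of surface and signalling genes, of which Ptprc (CD45) is the best known.

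Because RNMT acts on the cap that precedes the first transcribed base, the bases at the annotated start are shown for the 5 members that passed the test below, followed by Hnrnpa0 and Srsf5, which have a start of the terminal oligopyrimidine kind. Each line runs from 20 bases before the RefSeq transcript start to 20 bases from it on (GRCm38.p6), and the capitals are the first 5 transcribed bases.
Snrpg, chr6:86371520-86371559, plus strand: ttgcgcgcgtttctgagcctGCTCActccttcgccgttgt
Snrpa1, chr7:66060316-66060355, plus strand: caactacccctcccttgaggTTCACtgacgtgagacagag
Hnrnpl, chr7:28810870-28810909, plus strand: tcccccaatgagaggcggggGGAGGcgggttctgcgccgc
Hnrnpm, chr17:33685439-33685478, minus strand: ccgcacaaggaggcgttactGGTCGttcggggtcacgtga
Hnrnph2, chrX:134601159-134601198, plus strand: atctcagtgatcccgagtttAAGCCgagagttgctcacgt
Hnrnpa0, chr13:58128537-58128576, minus strand: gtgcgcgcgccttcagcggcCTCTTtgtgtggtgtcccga
Srsf5, chr12:80945479-80945518, plus strand: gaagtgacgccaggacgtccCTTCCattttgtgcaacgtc
None of the 5 members that passed the test starts with C in this annotation. RefSeq gave 51 start windows for 38 of the members. A start with C was annotated in 10 of the 51 windows (19.6%), against 14.8% of the 10803 windows of all genes tested, and 8 of those 10 belonged to Hnrnp genes. A C followed by at least 4 more pyrimidines, as in mRNAs with a terminal oligopyrimidine tract, stood at 2 of the 51 member starts (3.92%) and at 2.42% of the windows of genes tested. Hnrnpa0 and Srsf5 are those 2 members. These are annotated starts and not starts measured in these cells.

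Some letters were also searched in the whole windows, which run from 250 bases before the start to 50 bases from it on, on both strands. The 3 motifs, which do not overlap each other, were chosen after windows had been read: CCGGAAG, the core of an ETS-type site, CACGTG, the E-box, and CCATNTT, the core of a YY1-type site. CCGGAAG was in 14 of 51 member windows (27.5%), against 19.4% of windows of genes tested. By family it was in 4 of 10 Snrp windows, 6 of 14 Srsf windows and 4 of 27 Hnrnp windows. Several genes have more than 1 window, some of them overlapping, so these are not independent. Of the 5 members that passed the test, Snrpg held CCGGAAG, Hnrnpm and Hnrnph2 held CACGTG, and Snrpa1 and Hnrnpl held none of the 3. CACGTG was in 13.7% and CCATNTT in 13.7% of member windows, against 10.3% and 15.6% of windows of genes tested.

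Counts assigned to genes came to between 8873413 and 11277764 per library, and the smallest count of any member in any library was 35. The libraries did not all stand with their group. The share of uniquely mapped reads that lay in no gene came to 36.1%, 39.7% and 46.1% in the control libraries, numbered 1 to 3. The Rnmt cKO libraries, numbered likewise, had 47.9%, 46.5% and 31.8%. Rnmt cKO 3 thus lay on the side of controls 1 and 2, and control 3 on the side of Rnmt cKO 1 and 2. Rnmt itself was 56.0 ± 3.94 CPM in control and 35.3 ± 7.88 CPM in Rnmt cKO libraries (SD, n = 3 each), all 3 Rnmt cKO values lying below the controls. Whole-gene counts do not measure the deleted exon. The 8 naïve CD4 T cell markers were all tested and summed to 4482 to 4803 CPM in control and 5104 to 5691 CPM in Rnmt cKO libraries. Summed CPM of B cell markers was 64.4 to 79.4 in control and 85.6 to 143 in Rnmt cKO libraries, and of CD8 T cell markers 21.7 to 23.3 and 13.5 to 17.3. Myeloid markers summed to 25.7 to 33.2 CPM in control and 32.3 to 40.2 CPM in Rnmt cKO libraries, and erythroid markers to 3.87 to 6.0 and 0.634 to 0.896 CPM. Summed CPM of 34 proliferation genes was 574 to 620 in control and 1106 to 1194 in Rnmt cKO libraries, and 30 of the 34 were higher. The part of these differences in the results below was not tested.

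In control cells the 3 families differed in their length-scaled level, given as CPM per kb of annotated exon. The median was 24.0 CPM per kb for Snrp, 64.6 for Srsf and 51.2 for Hnrnp genes. Each family spanned a wide range: 13.7 to 81.7 CPM per kb for Snrp, 1.68 to 285 for Srsf and 9.86 to 209.7 for Hnrnp genes. Srsf5, an SR protein whose transcript is known to respond quickly to growth signals, had the highest level of all members with 285 ± 29.9 CPM per kb (SD, n = 3). Next in the Srsf family was Srsf2 (SC35), an SR protein that stays in the nucleus, at 96.9 ± 3.44 CPM per kb. Hnrnpa2b1 and Hnrnpa1, the most studied hnRNPs of the A/B group, led their family with 209.7 ± 14.2 and 154 ± 16.9 CPM per kb. Of the Snrp genes, Snrpb, which encodes the Sm B and B′ ring subunits, came first with 81.7 ± 13.2 CPM per kb and Snrpf, another ring subunit, second with 52.6 ± 5.94 CPM per kb. Srsf12 was the lowest of all members at 1.68 ± 0.262 CPM per kb. The low value of Hnrnpr, 9.86 CPM per kb, goes with an annotated exon length of 21483 bases, against a median of 3537 bases in its family.

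**Figure D1:**
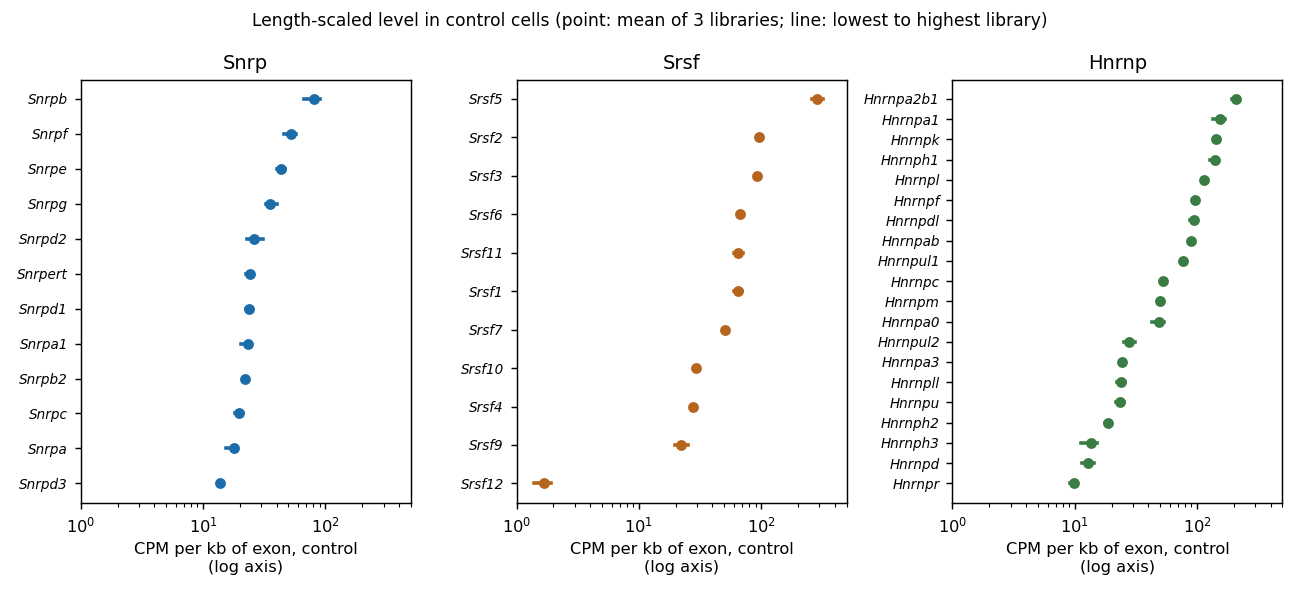
Level of each member in control cells, as CPM per kb of exon on a log axis, in 1 panel per family. Points are means of 3 libraries and lines run from the lowest to the highest library. Srsf5, Hnrnpa2b1 and Snrpb lead their families, and Srsf12, at 1.68 CPM per kb, lies far below the other Srsf genes.

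Between the genotypes, 5 of the 43 members passed the test, and none changed by more than 1 on the log2 scale. Snrpg, a subunit of the Sm ring, fell in Rnmt cKO cells. Snrpa1, a protein of the U2 snRNP, and 3 hnRNP genes, Hnrnpl, Hnrnpm and Hnrnph2, rose. No Srsf gene passed. The test was the exact test of edgeR on TMM-scaled counts, with Benjamini-Hochberg adjustment over all 12336 genes and a threshold of 0.05, and p-values measure the spread between these 6 samples.

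The share of members called, 11.6%, lay near that of all genes, 14.8%. Rnmt cKO cells had 6.84% of the 12336 genes at a lower and 8.0% at a higher level, and of the 43 members 1 (2.33%) was lower and 4 (9.30%) were higher. By family, 1 of 12 Snrp genes was lower and 1 higher, 0 of 11 Srsf genes were called in either direction, and 0 of 20 Hnrnp genes were lower and 3 higher. At an unadjusted p below 0.05, 1 Srsf gene was higher and none lower. The share of all genes at that looser threshold is not given here. The quasi-likelihood test of edgeR and DESeq2 called no Srsf gene either. Of all genes these tests called 6.43% and 5.69% higher, and 5.16% and 5.17% lower. Of all genes tested 4.79%, and 0.909% of the 6820 genes with a control mean of at least 20 CPM, lay beyond a log2 change of 1 in either direction, and no member did. Most members, 41 of 43, were above that level.

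The median log2 fold change (Rnmt cKO over control) was 0.04 for Snrp, 0.06 for Srsf and 0.17 for Hnrnp genes, and 0.01 for all genes tested. More members lay above 0 than below it in each family: 7 of 12 Snrp, 9 of 11 Srsf and 16 of 20 Hnrnp genes. The Snrp genes were spread most widely, from -0.51 to 0.40, the Srsf genes from -0.06 to 0.27 and the Hnrnp genes from -0.17 to 0.30. The difference between the families was not tested.

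**Figure D2:**
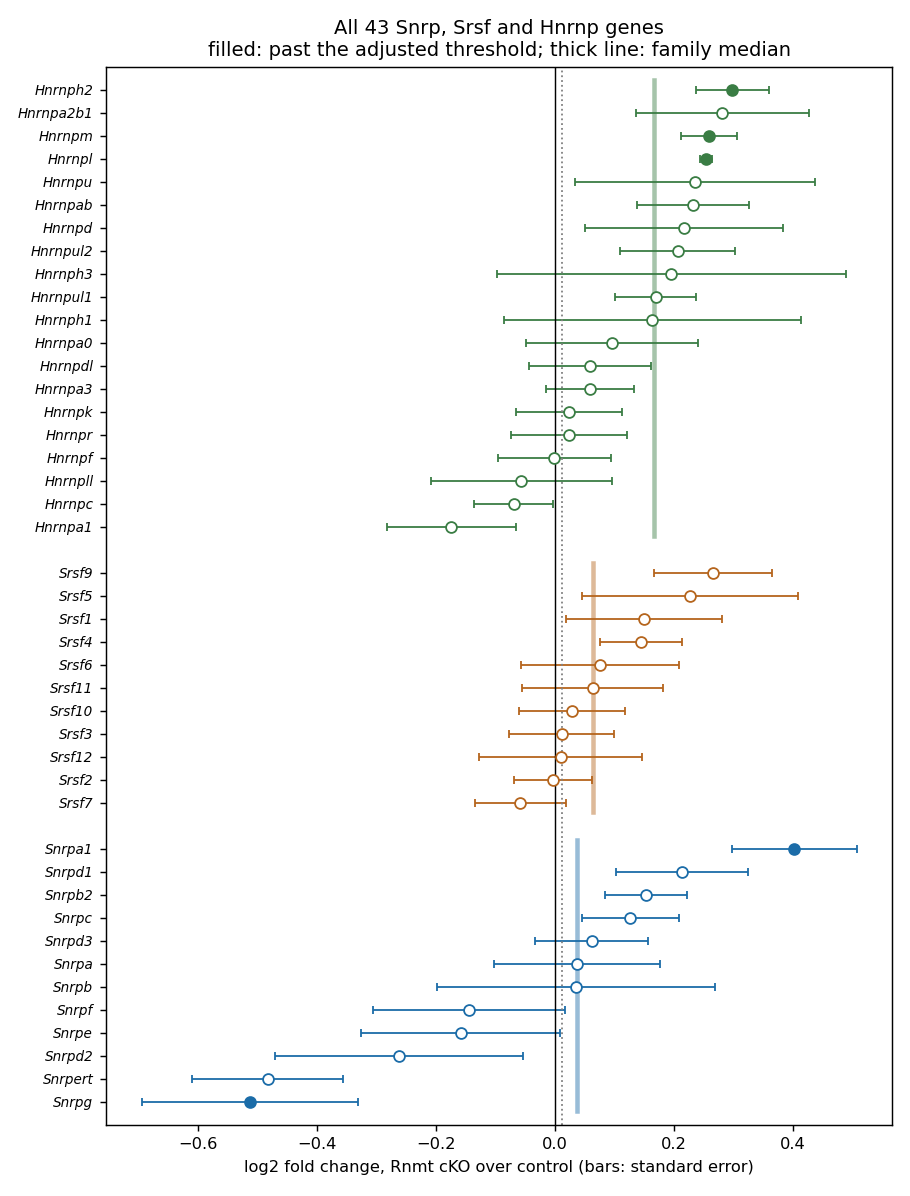
Log2 fold change (Rnmt cKO over control) of each of the 43 members, with standard errors from 3 libraries a group. Filled points passed the adjusted threshold, the thick line in each family is its median and the dotted line the median of all genes tested (0.01). The 5 filled points are Snrpg on the left and Snrpa1, Hnrnpl, Hnrnpm and Hnrnph2 on the right.

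The CPM scale matters for the direction of these small differences. With library size alone in place of TMM factors the median over all genes tested shifted by 0.12, to 0.14 (log2), and 4.34% of genes were lower and 15.7% higher. The calls then numbered 1 lower and 3 higher among Snrp, 1 higher among Srsf and 7 higher among Hnrnp genes. Relative to the median of all genes, the Hnrnp median was 0.15 with TMM factors and 0.16 with library size alone. The corresponding values were 0.05 and 0.05 for Srsf genes, and 0.02 and 0.02 for Snrp genes. A change of scale shifts all genes by nearly the same amount, so these differences could hardly move and do not test the scale.

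Within the Snrp family, the 7 ring genes were not of a single direction. Snrpg (ENSMUSG00000057278, chr6:86371304-86379328, plus strand, GRCm38) encodes the Sm G subunit. Its level was 42.8, 35.3 and 34.6 CPM in controls 1, 2 and 3, and 24.2, 22.6 and 32.1 CPM in Rnmt cKO 1, 2 and 3. All 3 Rnmt cKO values lay below the controls, Rnmt cKO 3 the closest to them. The change was -0.51 ± 0.18 on the log2 scale (SE), a fall of 29.9%, with an adjusted p of 0.00986 in the edgeR exact test. It lost the threshold without control 1, Rnmt cKO 1 or Rnmt cKO 2 in turn (adjusted p = 0.114, 0.0833 and 0.105) and was larger, -0.70, without Rnmt cKO 3. The threshold was also lost in the quasi-likelihood fit with the replicate number as a block (adjusted p = 0.0946).

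The fall of Snrpg can also be given relative to its own partners, on a scale that needs no normalization between libraries. Of the counts of the 7 ring genes together, Snrpg took 11.1%, 10.2% and 11% in controls 1, 2 and 3. It took 7.95%, 7.88% and 8.04% in Rnmt cKO 1, 2 and 3. The groups averaged 10.8% ± 0.499 and 7.96% ± 0.0822 (SD, n = 3), and Rnmt cKO 3 did not stand apart from the other Rnmt cKO libraries in this ratio. The ratio was chosen after the values of Snrpg had been seen and has no test. Snrpg had the lowest fold change of the 7 ring genes, so a lower mean share follows from the same counts.

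The other 6 ring genes did not pass the test. Snrpd2 (log2 fold change -0.26 ± 0.21), Snrpe (-0.16 ± 0.17) and Snrpf (-0.14 ± 0.16) had lower means in Rnmt cKO cells, and Snrpb (0.04 ± 0.23), Snrpd3 (0.06 ± 0.09) and Snrpd1 (0.21 ± 0.11) higher ones, each with overlapping groups. For Snrpf the values were 49.4, 46.9 and 39.5 CPM in controls and 39.8, 35.2 and 48.0 CPM in Rnmt cKO libraries. Snrpb was at 106, 101 and 77.4 CPM in controls and at 86.7, 81.4 and 124 CPM in Rnmt cKO libraries. In both genes control 3 lay near Rnmt cKO 1 and 2, and Rnmt cKO 3 near or above controls 1 and 2, which is the arrangement of the libraries in the share of reads outside genes. Without Rnmt cKO 3, Snrpd2 (-0.45, adjusted p = 0.0113) and Snrpe (-0.35, adjusted p = 0.00521) passed the exact test as lower along with Snrpg, and Snrpf did not (-0.29, adjusted p = 0.0759).

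**Figure D3:**
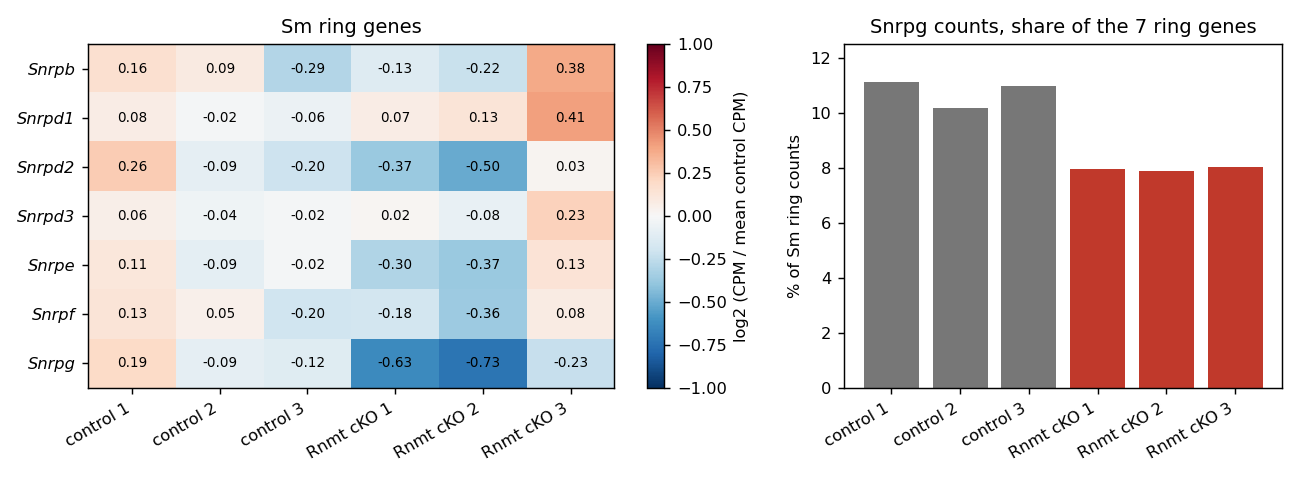
Left, log2 ratio of CPM to the control mean for the 7 Sm ring genes in each library, in colour and printed. Right, Snrpg counts as a percentage of the counts of the 7 genes in each library. Snrpg is negative in all 3 Rnmt cKO libraries, the other ring genes are at or above the control mean in Rnmt cKO 3, and the Snrpg share is 7.88% to 8.04% in Rnmt cKO against 10.2% to 11.1% in control libraries.

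Snrpert, annotated as a processed pseudogene of Snrpe on chromosome 2, inside Rnf24 and on its strand, had the second lowest fold change of the family. Its counts were low, 61, 63 and 62 in the controls and 43, 51 and 63 in the Rnmt cKO libraries, or 6.29 to 7.17 and 4.30 to 5.65 CPM. The CPM values did not overlap between the groups, and the change of -0.48 ± 0.13 (log2, SE) did not pass the test (edgeR exact test, adjusted p = 0.147). Unique mapping can lose or split the reads of Snrpe and of such a copy, so the levels of both are uncertain.

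Among the proteins specific to U1 and U2, Snrpa1 (ENSMUSG00000030512, chr7:66059003-66074587, plus strand, GRCm38), the U2 A′ protein that binds the U2 snRNA together with Snrpb2, had the largest rise of all members. It was at 30.7, 30.2 and 25.7 CPM in controls 1, 2 and 3, and at 39.0, 34.8 and 40.8 CPM in Rnmt cKO 1, 2 and 3. The groups did not overlap, and the change was 0.40 ± 0.11 (log2, SE), a rise of 32.1%, with an adjusted p of 0.0113 in the edgeR exact test. The call was lost with DESeq2 (adjusted p = 0.0583) and without control 3 (0.109) or Rnmt cKO 1 (0.0701). It was also lost in the quasi-likelihood fit with the replicate number as a block (adjusted p = 0.113). Snrpb2 (0.15 ± 0.07), which encodes U2 B′′, and the U1 proteins Snrpa (0.04 ± 0.14) and Snrpc (0.13 ± 0.08) did not pass.

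**Figure D4:**
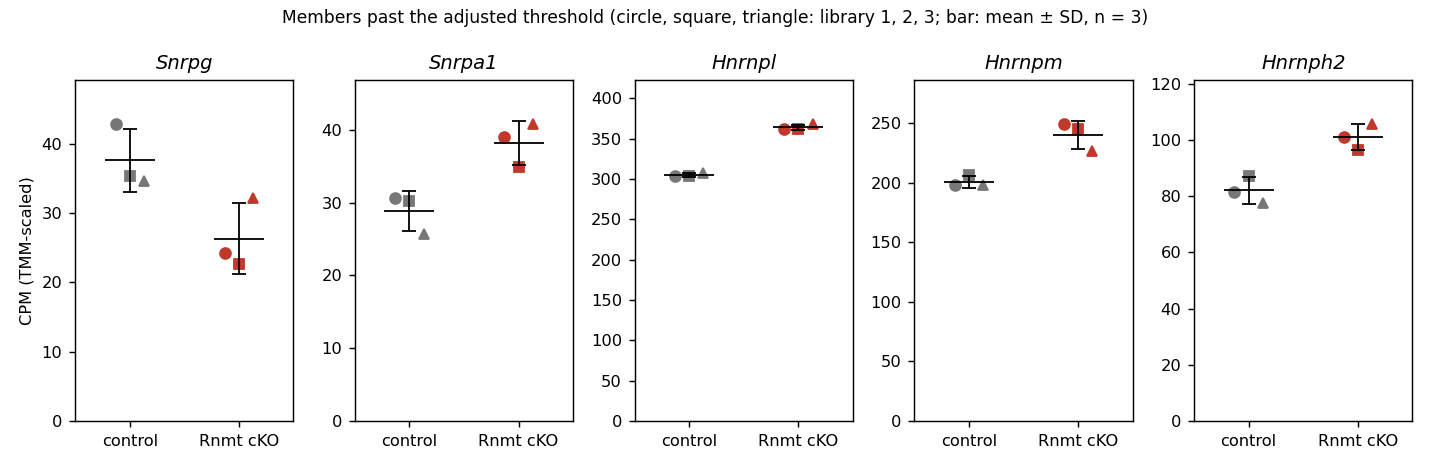
CPM (TMM-scaled) of the 5 members past the adjusted threshold in each of 6 libraries, with mean ± SD (n = 3 a group). Snrpg is lower in each Rnmt cKO library than in any control, and the other 4 genes are higher in each.

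In the Hnrnp family 3 genes rose, each by about the same proportion. Hnrnpl (ENSMUSG00000015165, chr7:28808541-28822266, plus strand, GRCm38) binds CA-rich RNA and represses variable exons of Ptprc. It showed 304, 304 and 308 CPM in controls and 362, 362 and 368 CPM in Rnmt cKO libraries. No member had a tighter spread within groups, and Rnmt cKO 3 did not differ from the other Rnmt cKO libraries here. The rise was 0.25 ± 0.0098 (log2, SE), or 19.2%, with an adjusted p of 0.0354 in the edgeR exact test, which moderates a gene's spread towards that of other genes. It passed the threshold in 5 of 15 alternatives, with adjusted p from 0.00151 to 0.202, among which the quasi-likelihood test gave 0.0561.

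Hnrnpm (ENSMUSG00000059208, chr17:33646233-33686860, minus strand, GRCm38), a GU-binding hnRNP that competes with epithelial splicing factors in other cells, was at 198, 207 and 198 CPM in controls and at 249, 245 and 227 CPM in Rnmt cKO libraries. All 3 Rnmt cKO values lay above the controls. The rise was 0.26 ± 0.05 (log2, SE), or 19.7%, with an adjusted p of 0.0363 (edgeR exact test), and it also passed in 5 of 15 alternatives. The gene overlaps March2 on the same strand, and reads in the shared stretch could be assigned to neither or to the other.

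Hnrnph2 (ENSMUSG00000045427, chrX:134601179-134607060, plus strand, GRCm38), a G-run-binding relative of Hnrnph1 carried on the X chromosome, was at 81.6, 87.0 and 77.5 CPM in controls and at 101, 96.3 and 106 CPM in Rnmt cKO libraries. The groups were separate, with a rise of 0.30 ± 0.06 (log2, SE), or 23.0%, and an adjusted p of 0.0157 (edgeR exact test). It passed in 9 of 15 alternatives, with adjusted p up to 0.130. The losses included DESeq2 (adjusted p = 0.0710), no filter on low counts (0.0541) and the fits without control 1 (0.0951), control 3 (0.125) or Rnmt cKO 1 (0.0735). Its close relatives Hnrnph1 (0.16 ± 0.25), Hnrnph3 (0.20 ± 0.29) and Hnrnpf (0.00 ± 0.10) did not pass. Hnrnph1 and Hnrnph3 had the widest errors among the Hnrnp genes.

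Hnrnpll, the paralogue of Hnrnpl that is induced in activated and memory T cells and drives exclusion of the variable Ptprc exons, was at 69.1, 73.2 and 80.7 CPM in controls and at 81.7, 73.8 and 59.2 CPM in Rnmt cKO libraries. The ranges overlapped, and the log2 change was -0.06 ± 0.15 (adjusted p = 0.862, edgeR exact test), turning to 0.04 without Rnmt cKO 3 and to 0.07 with library size alone. Hnrnpa1 had the largest negative value of the family. It was at 326, 297 and 261 CPM in controls and at 245, 258 and 280 CPM in Rnmt cKO libraries, a change of -0.17 ± 0.11 that did not pass (adjusted p = 0.340). Hnrnpa1 has many processed copies in the genome, so its unique counts are uncertain. Hnrnpa2b1 showed 471, 524 and 536 CPM in controls and 667, 682 and 511 CPM in Rnmt cKO libraries, so that Rnmt cKO 3 alone lay among the controls (0.28 ± 0.15, adjusted p = 0.133, edgeR exact test).

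The rest of the Hnrnp genes did not pass. In the A/B and D group, which bind AU- and UAG-rich RNA, Hnrnpab (0.23), Hnrnpd (0.22), Hnrnpa0 (0.10), Hnrnpdl (0.06) and Hnrnpa3 (0.06) were all above 0 on the log2 scale. The U group, named after Hnrnpu, a scaffold protein of the nuclear matrix, had values of 0.24 for Hnrnpu, 0.21 for Hnrnpul2 and 0.17 for Hnrnpul1. Hnrnpk, a poly(C)-binding KH-domain protein, was at 0.02, Hnrnpr, a relative of Syncrip, at 0.02 and Hnrnpc, which binds uridine tracts and measures transcript length, at -0.07. Groups that did not overlap are a looser criterion than the test: 5 Hnrnp genes met it as higher (Hnrnpl, Hnrnpm, Hnrnph2, Hnrnpul1 and Hnrnpab), and over all genes tested 16.6% met it as higher and 14.9% as lower. Of all 43 members, 7 met it as higher and 2 as lower.

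In the Srsf family, Srsf9, a small SR protein with a short RS domain, had the largest rise. It was at 25.4, 29.2 and 23.1 CPM in controls and at 31.0, 30.9 and 31.7 CPM in Rnmt cKO libraries. The groups did not overlap, but the change of 0.27 ± 0.10 (log2, SE) did not pass (edgeR exact test, adjusted p = 0.156). Srsf7, an SR protein with a zinc knuckle, had the lowest value (-0.06 ± 0.08), with 125, 135 and 132 CPM in controls and 130, 133 and 114 CPM in Rnmt cKO libraries. Srsf2 was level between the groups, with 194, 201 and 187 CPM in controls and 209, 192 and 181 CPM in Rnmt cKO libraries (0.00 ± 0.07). Srsf5 was at 453, 528 and 435 CPM in controls and at 626, 593 and 438 CPM in Rnmt cKO libraries, again with Rnmt cKO 3 among the controls (0.23 ± 0.18, adjusted p = 0.335, edgeR exact test). The other 7 members lay between 0.01 (Srsf12) and 0.15 (Srsf1).

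The 3 libraries of the Rnmt cKO group did not move alike. Relative to each gene's control mean, the median Srsf gene was at 0.13, 0.16 and -0.11 (log2) in Rnmt cKO 1, 2 and 3, and between -0.05 and 0.05 in the controls. In Rnmt cKO 1, 8 of 11 Srsf genes were above every control, in Rnmt cKO 2 also 8, and in Rnmt cKO 3 only Srsf9 was, while 6 were below every control. Over all genes tested, 35.5%, 33.8% and 35.6% lay above every control in Rnmt cKO 1, 2 and 3, and 31.1%, 31% and 36.2% below every control. The median Snrp gene went the other way, with -0.15, -0.15 and 0.19 in Rnmt cKO 1, 2 and 3 and 0.09, 0.00 and -0.11 in controls 1, 2 and 3. In Rnmt cKO 3, 8 of 12 Snrp genes were above every control, against 2 in Rnmt cKO 1 and 3 in Rnmt cKO 2. The median Hnrnp gene was at 0.15, 0.16 and 0.02, with 14, 14 and 9 of 20 genes above every control. These counts by family have no test.

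**Figure D5:**
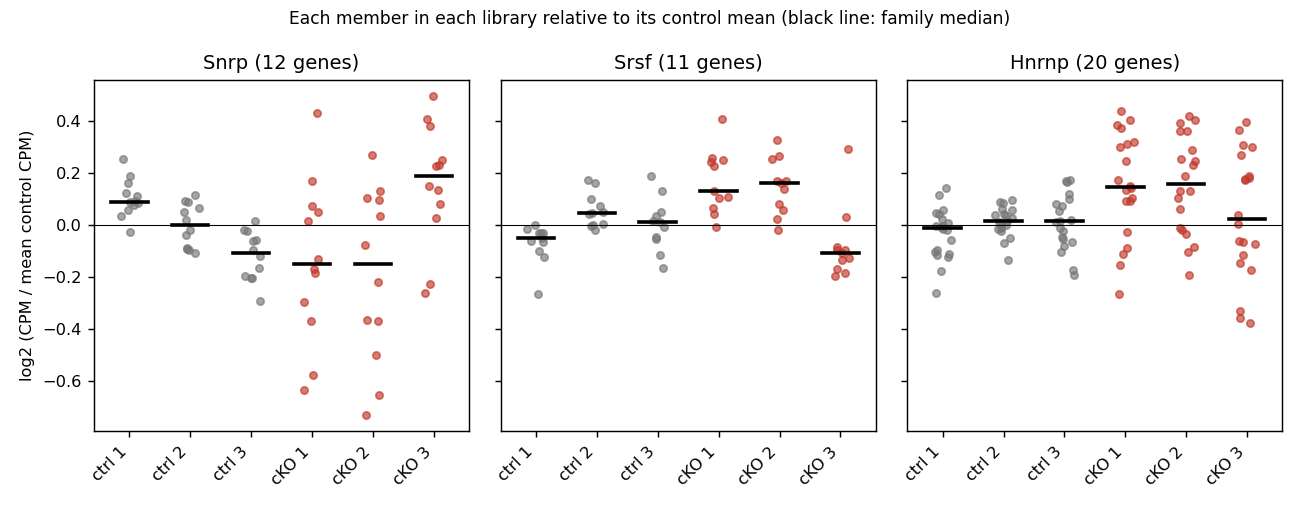
Log2 ratio of CPM to the gene's own control mean for each member in each library, in 1 panel per family, with black lines at the family median. In Rnmt cKO 3 the Snrp median is 0.19 and the Srsf median -0.11, whereas in Rnmt cKO 1 and 2 the Snrp medians are -0.15 and the Srsf medians 0.13 and 0.16.

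Summed over the 11 genes, Srsf transcripts made up 2035, 2217 and 2107 CPM in controls 1, 2 and 3 and 2461, 2410 and 1952 CPM in Rnmt cKO 1, 2 and 3. Rnmt cKO 3 was the lowest of the 6 libraries and the other two Rnmt cKO libraries the highest. Summed Hnrnp transcripts were 4576, 4682 and 4605 CPM in controls and 5089, 5149 and 4870 CPM in Rnmt cKO libraries, and these groups did not overlap. Summed Snrp transcripts were 528, 491 and 443 CPM in controls and 454, 434 and 565 CPM in Rnmt cKO libraries. These sums are relative to the scaled library total, so a lower sum can also go with more RNA of other genes. A bulk sample cannot tell apart fewer cells with these transcripts from less of them per cell.

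Without Rnmt cKO 3, more members passed the exact test: 4 Snrp genes as lower (Snrpg, Snrpe, Snrpd2 and Snrpert), and 1 Snrp, 2 Srsf (Srsf1 and Srsf5) and 8 Hnrnp genes as higher. Over all genes 10.5% were then lower and 10% higher. The 8 Hnrnp genes were Hnrnpl, Hnrnpm and Hnrnph2 and, in addition, Hnrnpu, Hnrnpa2b1, Hnrnph1, Hnrnpd and Hnrnph3. The median of the Snrp family turned from 0.04 to -0.12, that of the Srsf family moved from 0.06 to 0.13 and that of the Hnrnp family from 0.17 to 0.12. With the pseudogene Snrpert left out, the Snrp median turned from 0.04 to -0.05. Without Rnmt cKO 1, 0 members passed, and 4.84% of all genes were lower and 5.52% higher.

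The families were also compared within sets of libraries with a like share of reads outside genes. Among controls 1 and 2 and Rnmt cKO 3, where the share was below 43%, the median log2 ratio of Rnmt cKO over control was 0.16 for Snrp, -0.12 for Srsf and 0.04 for Hnrnp genes. Among control 3 and Rnmt cKO 1 and 2, it was 0.05, 0.09 and 0.17. The median over all genes was 0.00 and 0.01. Srsf medians thus had opposite signs in the 2 sets, while Snrp and Hnrnp medians were above 0 in both. Of the genes that passed the test, Snrpg (-0.28) was below 0, and Snrpa1 (0.42), Hnrnpl (0.28), Hnrnpm (0.16) and Hnrnph2 (0.32) were above 0, in the set with Rnmt cKO 3. These signs were fixed beforehand, since the groups did not overlap in any of these genes. Each set has a single library in 1 of its groups, so these values have no test, and whether the share of reads outside genes had a part in them was not tested.

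Other genes of the splicing machinery, in lists by function, are given for comparison by their counts, to be read beside the 8.0% of all genes that were higher and the 6.84% that were lower. Of 36 further proteins of the U1, U2 and U4/U6.U5 snRNPs, 4 were higher (Usp39, Sf3b4, Phf5a and U2af1, with log2 fold changes from 0.44 to 0.49) and 0 lower, with a median of 0.14. Of 13 LSm proteins, relatives of the Sm proteins that bind U6 and decaying mRNA, only Lsm12 was higher (0.48) and 0 were lower (median 0.02). Of 16 tested factors that assemble or import snRNPs, such as the SMN complex, 0 passed in either direction by the exact test (median 0.04). None had an unadjusted p below 0.05 either, a threshold for which the share of all genes is not given here. Of 26 SR protein kinases, SR-related proteins and importers, 4 were higher (Clk3, Acin1, Pnn and Rnps1) and 0 lower, with a median of 0.17. Of 31 tested other hnRNP-type proteins, 4 were higher (Ewsr1, Elavl1, Mbnl1 and Mbnl2) and 0 lower, with a median of 0.08. Without Rnmt cKO 3 the counts higher and lower were 8 and 2 for the snRNP proteins, 1 and 1 for LSm proteins, 13 and 0 for SR-related genes and 8 and 3 for the other hnRNP-type proteins, beside 10% and 10.5% of all genes. No assembly or import factor passed in either direction. The medians were then 0.09 for the snRNP proteins, -0.05 for LSm proteins, -0.03 for assembly and import factors, 0.23 for SR-related genes and 0.03 for the other hnRNP-type proteins.

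The Sm ring binds spliceosomal snRNAs other than U6. The genes called snRNA genes here are those annotated as snRNA or with a symbol starting with Rnu, such as Rnu73b. Not every gene of this list need therefore make an RNA that the Sm ring binds. Of 29 tested snRNA genes, 12 were lower and 0 higher in the edgeR exact test, with a median log2 fold change of -0.50, where 6.84% of all genes were lower. Without Rnmt cKO 3, 12 were lower and 1 higher, and the median was -0.26. Their summed level was 1479, 772 and 1002 CPM in controls 1, 2 and 3, and 345, 305 and 620 CPM in Rnmt cKO 1, 2 and 3, with no overlap between the groups. In the same libraries the 7 ring genes summed to 385, 347 and 315 CPM in controls and 305, 287 and 399 CPM in Rnmt cKO libraries, and these overlapped. Unique counts cannot tell near-identical snRNA copies apart, and short RNAs are recovered unevenly by this kind of library, so the levels of single snRNA genes are uncertain.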

How the data were processed

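The authors aligned paired-end reads of rRNA-depleted RNA to mm10 with STAR 2.5.2b, using the basic annotation of GENCODE vM12. They deposited raw counts of uniquely mapped reads per gene. Sense counts were used. The deposited edgeR table holds the authors' fold changes and p-values, which were not used, and a scaled signal per library, which matched the sense counts for 100% of genes up to 1 constant per library. Lines for unassigned reads were left out of library sizes (31.8% to 47.9% of uniquely mapped reads were in no gene).

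Counts were scaled with TMM (CPM) and tested with the exact test of edgeR 4.0.16 (R 4.3.3) on tagwise dispersions. SEs come from per-library log2 CPM with a prior count of 2. The code was tested on simulated data. Coordinates, exon lengths and overlaps are from GENCODE vM21, start sequences from RefSeq (GRCm38.p6).

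The members and gene lists were chosen with earlier results of these data known. Values per library are given for members past the threshold, the 2 highest levels per kb and the largest rise and fall in each family, and Hnrnpll. Any other named gene was chosen after its values were seen. Alternatives were the quasi-likelihood test, DESeq2 1.42.0, other scalings, filters and strand, a replicate block, the no-gene share as covariate and leaving out each library.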

Additional observations from a re-analysis of the deposited data

How the results depend on the processing

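A family's count of lower genes, count of higher genes or median was compared with its value under each of 15 alternatives. Of these 135 comparisons, 103 stayed within 1.5 times the count or within the spread between replicates. Comparisons of 0 with 0 are among the 103, such as all those of lower Srsf and lower Hnrnp genes. The count of higher Hnrnp genes, 3, stayed within that limit only with counts of either strand (2) and more than 1 CPM in all 6 libraries (3). No alternative called a Srsf or an Hnrnp gene lower. Hnrnp genes higher numbered 1 with the quasi-likelihood test, 1 with DESeq2, 1 with RLE size factors and 0 with no filter on low counts, against 3. The shares of all genes that were higher in these fits were 6.43%, 5.69%, 7.47% and 3.24%, against 8.0%. Snrp genes higher numbered 0 with DESeq2. With library size only, 3 Snrp, 1 Srsf and 7 Hnrnp genes were higher, and the medians were 0.19 for Srsf and 0.29 for Hnrnp genes (log2). In that fit 15.7% of all genes were higher. With the share of reads in no gene as a covariate in the quasi-likelihood fit, 2 Snrp and 9 Hnrnp genes were higher, and the Hnrnp median was 0.11. Of all genes, 13.8% were higher and 11.9% lower in that fit, against 8.0% and 6.84%. With the replicate block in the quasi-likelihood fit, 0 Snrp genes were lower, 0 Snrp genes were higher and 0 Hnrnp genes were higher, while Snrpg was at -0.52 (adjusted p = 0.0946), and 3.49% of all genes were higher and 2.24% lower. Whether samples with the same replicate number were paired is not given by the labels. Their deviations from the group means correlated at -0.213, -0.016 and -0.345. Deviations from a mean of 3 libraries depend on each other, so these values cannot decide it. Leaving out each library in turn gave 0 to 4 Snrp genes lower and 0 to 1 higher, with a Snrp median from -0.12 to 0.10. It gave 0 to 2 Srsf genes higher, and 0 to 8 Hnrnp genes higher with a Hnrnp median from 0.11 to 0.18. In the same fits 4.52% to 10.55% of all genes were lower and 5.314% to 10.02% higher. Both shares were lowest without Rnmt cKO 2 and highest without Rnmt cKO 3. The lowest Hnrnp count was found without control 1 or Rnmt cKO 1, and the highest without Rnmt cKO 3.

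Among members that did not pass the test, some small log2 fold changes turned sign. With library size only, Hnrnpll was at 0.072, Srsf7 at 0.068 and Srsf2 at 0.12. Srsf2 was at 0.00018 with no filter on low counts and at 0.0018 with more than 1 CPM required in all 6 libraries. Leaving out each library gave -0.16 to 0.045 for Hnrnpll, -0.19 to 0.15 for Snrpb and -0.060 to 0.024 for Srsf2. The 5 members that passed kept their direction under all 15 alternatives. For the fits without a library this had to be so, because the groups did not overlap in any of these members. Depth limits the less expressed members most: Snrpg rests on 229 to 364 counts per library and Srsf12 on 35 to 61. The cause of the changed calls was not tested. Fits without a library have fewer samples, and the one without Rnmt cKO 3 called more genes than the main test.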
